A study of Macaca fascicularis with 6 samples.

Results

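The genes described here are those whose names start with PSMA, PSMB, PSMC, PSMD, PSME, PSMF or PSMG, leaving out PSMB8 and PSMB9. There are 41 of them among the 14623 genes listed, and each of the 41 is in the gene table of each of the 6 samples. By role they are 5 alpha and 8 beta subunits of the core, 5 ATPase and 11 non-ATPase subunits of the cap, 5 activators or inhibitors and 6 assembly factors. The last, PSMC3IP, is included for its prefix: it encodes a partner of meiotic recombination proteins and no subunit. The subunit genes PSMA2, PSMA6 and PSMC3 and the assembly factor PSMG2 are listed under these names in no gene table. They are therefore in none of the counts and sums below.

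The proteasome is the protease that takes apart most ubiquitin-tagged proteins in the nucleus and cytoplasm. Its barrel-shaped core is built of alpha rings that gate the entrance and beta rings that hold the cutting sites, while the cap recognises ubiquitin chains, removes them, and unfolds and threads substrates with a ring of ATPases. Alternative activators open the core without ubiquitin, inducible beta subunits change the peptides it produces, and in an injured epithelium the complex turns over cell cycle regulators, adhesion proteins and inflammatory signalling factors.

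Cells of the corneal epithelium, from wild-type cynomolgus monkeys (Macaca fascicularis), were profiled one by one in 3 groups of 2 samples: uninjured corneas (day 0), and corneas at day 1 and at day 3 after an injury. The labels give neither the kind of injury nor the age of the animals, nor whether the 2 samples of a group are 2 animals, so each p-value reflects the spread between these samples alone. Cells were captured in droplets on the 10x Genomics platform, and the cDNA was kept at full length for HIT-scISOseq, which gives long reads spanning whole transcripts. Gene tables held 3733442 to 4928103 counts in 1068 to 1565 cell barcodes a sample, and the 41 genes together held 0.423% to 0.548% of them. The labels do not say whether these gene tables come from long or short reads, or whether reads of 1 molecule were merged, so a count may be a read or a molecule.

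Epithelial markers were present in each sample: the 13 basal markers summed to 14250 to 14890 CPM (counts scaled to library size after TMM correction) in uninjured samples, 8876 to 8920 CPM at day 1, and 38100 to 39660 CPM at day 3, with GPHA2, known from the limbus, at 0 at day 3. The 12 listed differentiation markers of 14 summed to 31500 to 31610 CPM in uninjured samples, 34480 to 36280 CPM at day 1, and 29980 to 31780 CPM at day 3. Markers of other cells also moved with the groups, and their part in the results was not tested. The 10 listed cycling markers of 12 summed to 56.4 to 120.2 CPM in uninjured samples, 30.8 to 41.0 CPM at day 1 and 285 to 327 CPM at day 3. The 8 listed keratocyte markers of 9 summed to 419 to 542 CPM in uninjured samples, where KERA, LUM, COL1A2, COL3A1 and THY1 were at 0, 190 to 205 CPM at day 1 with THY1 at 0, and 783 to 791.5 CPM at day 3. The 9 listed immune markers of 10 summed to 129 to 140 CPM in uninjured samples with FCER1G and CD3D at 0, 196 to 203 CPM at day 1, and 181 to 210.5 CPM at day 3 with CD3D at 0. The 6 listed conjunctival markers of 12 summed to 3221 to 3679 CPM in uninjured samples, 3982 to 4256 CPM at day 1, and 6547 to 6702 CPM at day 3. The 7 melanocyte markers summed to 64.8 to 83.9 CPM in uninjured samples, 24.2 to 32.7 CPM at day 1, and 27.5 to 37.8 CPM at day 3 with TYR and TYRP1 at 0. The 3 listed endothelial markers of 6 summed to 2.19 to 3.31 CPM in uninjured samples with PECAM1 at 0, 6.10 to 9.04 CPM at day 1, and 9.81 to 10.1 CPM at day 3. The share of the 13 mitochondrial transcripts was 9.12% and 9.32% without injury, 7.23% and 7.28% at day 1, and 4.52% and 4.39% at day 3, and its part was not tested either.

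Most proteasome genes were higher after injury. Counts were summed over the cells of a sample and compared across samples with edgeR's quasi-likelihood test, with Benjamini-Hochberg adjustment over 12294 genes and a threshold of 0.05; each of the 41 genes passed the filter on low counts. In such sums, more cells of a type and more RNA per cell cannot be told apart. At day 1, 31 of the 41 genes rose and 1 fell against uninjured samples, where 30.5% of all tested genes rose and 31.7% fell. The median log2 change was 0.58 for the 41 genes, against -0.06 for all genes tested. At day 3, 33 of the 41 rose and 0 fell against uninjured samples, where 28.8% of all genes rose and 26.4% fell, with a median log2 change of 0.63 against -0.04 for all genes. In each of the genes called, both samples of the injured group lay on the same side of both uninjured samples. The test itself favours genes that separate in this way, so this adds no support of its own. The share of all called genes that separate so is not given.

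The size of the rise depends on how libraries are scaled. TMM scaling, used throughout, sets aside the genes that changed most. Scaling to library totals alone moved the median of all genes to -0.40 at day 1 and -0.46 at day 3 on the log2 scale. The medians of the 41 genes were then 0.24 and 0.21, with 22 risen and 5 fallen at day 1 (background 19.4% and 47.2%) and 20 risen and 3 fallen at day 3 (background 16.1% and 50.4%). A stricter test, against a change of 1.5-fold, called 14 of the 41 higher at day 1 and 16 at day 3, where 15.5% and 13.7% of all genes passed; 0 were lower at either day, where 17.6% and 10.4% of all genes were.

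The days shared most of the genes called: 30 rose at both. Both days were set against the same uninjured samples, and the share of all genes that rose at both is not given. PSME4 rose at day 1 and was not called at day 3, while PSMC2, PSMD4 and PSMF1 rose at day 3 and were not called at day 1. The 7 genes that rose at neither were PSMC5, the assembly factors PSMD5, PSMD9, PSMD10, PSMG3 and PSMG4, and PSMC3IP.

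**Figure D1:**
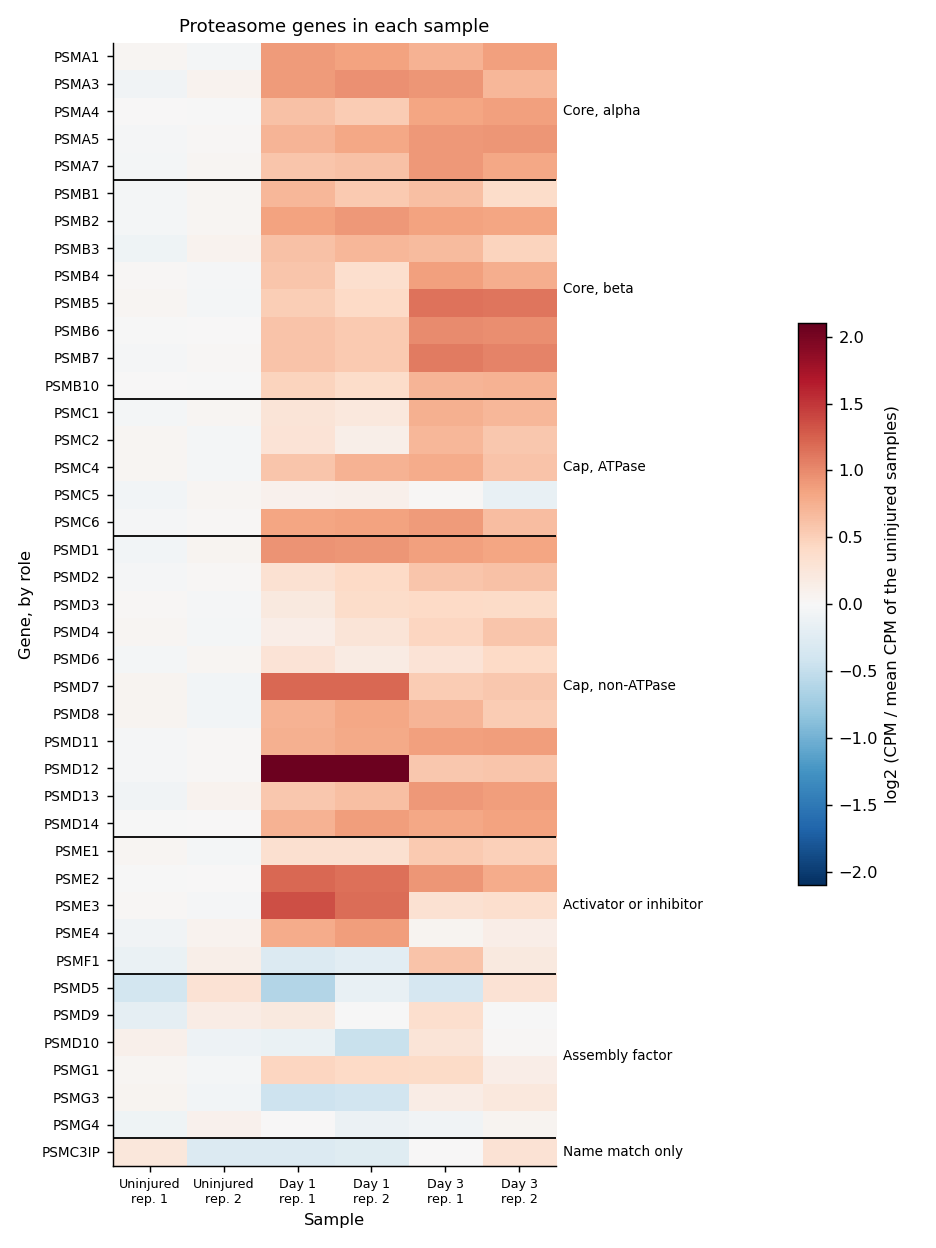
Colour gives the log2 ratio of each gene's level (CPM) in a sample to its mean over the 2 uninjured samples; rows are the 41 genes by role and columns the 6 samples. PSMD12 is darkest in both day 1 samples, the beta subunits PSMB5 and PSMB7 are darkest in both day 3 samples, and no assembly factor shows a strong red.

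The alpha subunits, which form the outer rings and the gate of the core, rose together: 5 of 5 at day 1 and 5 of 5 at day 3, with totals alone as well. PSMA3 had 95.8 and 105.9 CPM in uninjured samples, 187 and 197 CPM at day 1, and 193 and 164 CPM at day 3. Its 4 injured samples lay above both uninjured ones, and the days overlapped. PSMA3 had the largest rise of the alpha subunits at day 1, a log2 change of 0.93 ± 0.09 (SE, adjusted p = 5.66e-06), followed by PSMA1 at 0.87, PSMA5 at 0.76, PSMA7 at 0.60 and PSMA4 at 0.58. At day 3 the order was PSMA5 at 0.91, PSMA7 at 0.86, PSMA4 at 0.84, PSMA3 at 0.82 and PSMA1 at 0.79, a narrower span than at day 1.

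PSMA7 had 225 and 235 CPM in uninjured samples, 344 and 353 CPM at day 1, and 434 and 402 CPM at day 3, so that its groups did not overlap and each day lay above the one before. PSMA7 and PSMA4 were the alpha subunits that were higher at day 3 than at day 1, by 0.26 ± 0.08 (adjusted p = 0.0126) and 0.27 ± 0.07 (adjusted p = 0.00866) on the log2 scale. With DESeq2 PSMA7 kept this call and PSMA4 lost it (adjusted p = 0.0703). With totals alone neither passed, at 0.18 each, nor did PSMA7 without day 3 replicate 1 (0.21, adjusted p = 0.105) or PSMA4 without day 3 replicate 2 (0.25, adjusted p = 0.0524).

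The beta subunits carry the cutting sites, and all 8 in the tables rose at day 1 and at day 3 with TMM scaling. With totals alone 5 rose at day 1, without PSMB4, PSMB5 and PSMB10, and 6 at day 3, without PSMB1 and PSMB3. The 3 constitutive catalytic subunits changed in steps. PSMB5, which cuts after hydrophobic residues, had 146 and 138 CPM in uninjured samples, 203 and 191 CPM at day 1, and 315 and 308 CPM at day 3. PSMB6, which cuts after acidic residues, had 192 and 196 CPM in uninjured samples, 295 and 284 CPM at day 1, and 385 and 381 CPM at day 3. PSMB7, which cuts after basic residues, had 182 and 189 CPM in uninjured samples, 281 and 272 CPM at day 1, and 394 and 382 CPM at day 3. In all 3 genes both day 3 samples were highest, both day 1 samples came between, and no groups overlapped.

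Against uninjured samples the log2 changes at day 3 were 1.13 ± 0.08 for PSMB5 (adjusted p = 2.75e-07), 1.07 ± 0.08 for PSMB7 (adjusted p = 3.68e-07) and 0.98 ± 0.07 for PSMB6 (adjusted p = 6.45e-07). At day 1 they were 0.47 ± 0.08 for PSMB5 (adjusted p = 0.00027), 0.58 ± 0.08 for PSMB7 (adjusted p = 4.52e-05) and 0.58 ± 0.07 for PSMB6 (adjusted p = 3.99e-05). Day 3 exceeded day 1 by 0.66 in PSMB5 (adjusted p = 2.01e-05), 0.49 in PSMB7 (adjusted p = 0.000162) and 0.40 in PSMB6 (adjusted p = 0.000612). With totals alone PSMB5 was no longer called at day 1, at a log2 change of 0.14 (adjusted p = 0.147).

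Of the 4 structural beta subunits, 1 was called higher at day 3 than at day 1. PSMB2 had 76.1 and 80.6 CPM in uninjured samples, 141 and 147 CPM at day 1, and 141 and 139 CPM at day 3; its log2 rise was 0.88 at day 1 and 0.83 at day 3. PSMB3 rose by 0.65 at day 1 and 0.57 at day 3, and PSMB1 by 0.62 and 0.52. None of these 3 was called between the days. PSMB4 rose by 0.48 at day 1 and 0.82 at day 3 and was higher at day 3 than at day 1 by 0.34 ± 0.09 (adjusted p = 0.00641), a call lost without day 3 replicate 1 (adjusted p = 0.0516).

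PSMB10 is an inducible catalytic subunit that replaces PSMB7 in the immunoproteasome, the form that immune signals favour. It had 55.0 and 54.8 CPM in uninjured samples, 76.2 and 71.6 CPM at day 1, and 90.0 and 90.7 CPM at day 3, again in 3 separate steps. The log2 change was 0.43 ± 0.08 at day 1 (adjusted p = 0.000682) and 0.72 ± 0.08 at day 3 (adjusted p = 1.34e-05), and day 3 exceeded day 1 by 0.29 ± 0.08 (adjusted p = 0.008). With totals alone the day 1 value was 0.09 (adjusted p = 0.344), and the step between the days was not called by DESeq2, at an adjusted p of 0.114.

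The other inducible subunits, left out of the 41 genes, did not share one time course. PSMB8 had 48.2 and 53.6 CPM in uninjured samples, 106 and 96.6 CPM at day 1, and 82.9 and 73.6 CPM at day 3, a log2 rise of 1.00 at day 1 and 0.62 at day 3. PSMB9 had 24.1 and 19.4 CPM in uninjured samples, 22.3 and 19.7 CPM at day 1, and 56.2 and 53.0 CPM at day 3. Its log2 change was -0.04 at day 1 (adjusted p = 0.85) and 1.33 at day 3 (adjusted p = 5.1e-06). PSMB8 fell and PSMB9 rose between day 1 and day 3, by -0.38 and 1.37 on the log2 scale.

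**Figure D2:**
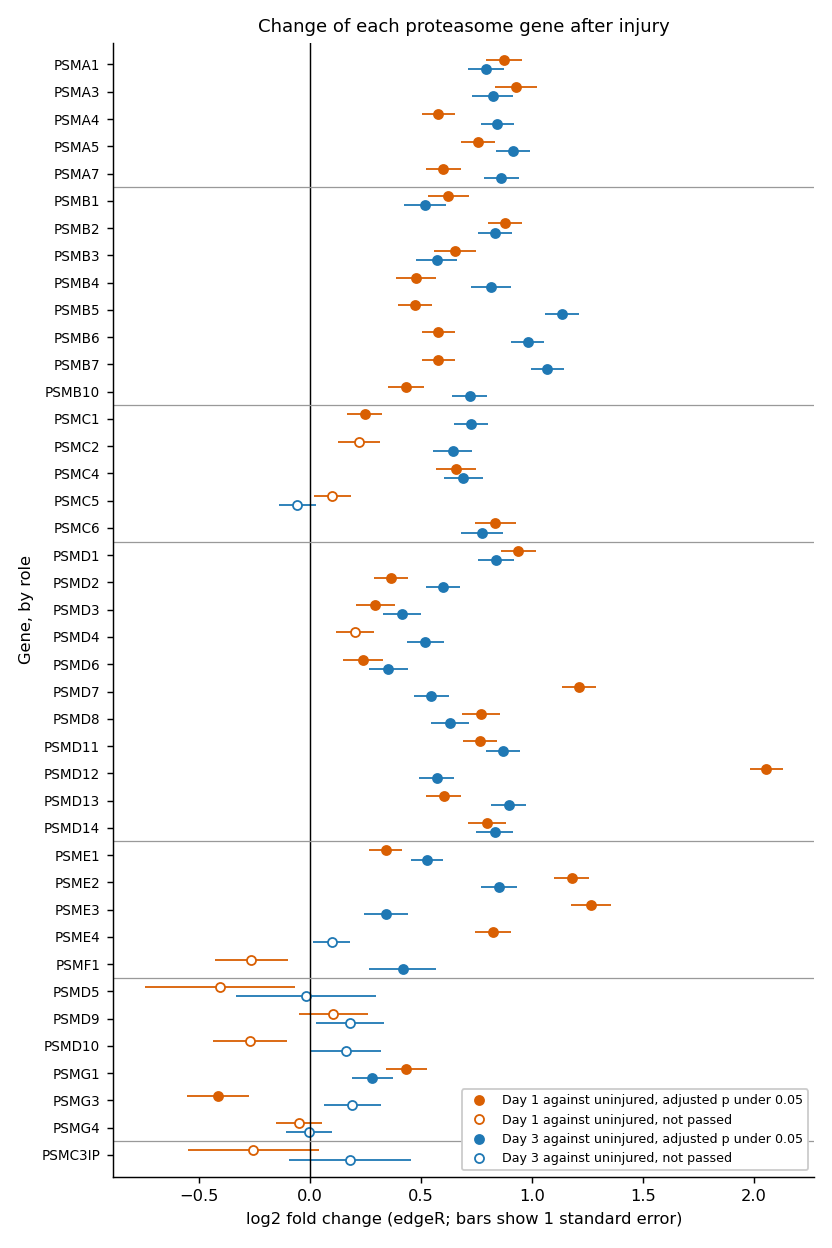
Points give the log2 change of each of the 41 genes at day 1 and at day 3 against uninjured samples, with bars of 1 standard error; filled points passed edgeR's adjusted threshold and open points did not. PSMD12 at day 1 (2.05) stands apart to the right, and open points gather among the assembly factors.

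The ATPases form the ring of the cap that unfolds substrates. Of the 5 in the tables, 3 rose at day 1 and 4 at day 3; with totals alone 2 rose and 1 fell at day 1, and 4 rose and 1 fell at day 3. PSMC6 had 60.2 and 62.8 CPM in uninjured samples, 110 and 110 CPM at day 1, and 114 and 96.1 CPM at day 3, and PSMC4 had 80.5 and 75.9, 117 and 130, and 134 and 118 CPM in the same order. Both rose at day 1, by 0.84 for PSMC6 and 0.66 for PSMC4, and at day 3, by 0.78 and 0.69, with no call between the days.

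PSMC1 and PSMC2 were higher at day 3 than at day 1. PSMC1 had 73.5 and 77.6 CPM in uninjured samples, 91.7 and 87.7 CPM at day 1, and 127 and 123 CPM at day 3. Its log2 change was 0.25 ± 0.08 at day 1 (adjusted p = 0.0175), a call lost without uninjured replicate 1 (0.21, adjusted p = 0.113) or day 1 replicate 1 (0.21, adjusted p = 0.0987) and with DESeq2 (adjusted p = 0.133), and 0.73 ± 0.08 at day 3 (adjusted p = 9.55e-06). PSMC2 was not called at day 1 (0.22, adjusted p = 0.056) and rose by 0.64 at day 3. Day 3 exceeded day 1 by 0.48 in PSMC1 (adjusted p = 0.000256) and 0.42 in PSMC2 (adjusted p = 0.00183).

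PSMC5 had 187 and 200 CPM in uninjured samples, 207 and 208 CPM at day 1, and 198 and 175 CPM at day 3. It was the only core or cap gene of the tables called at neither day by edgeR with TMM scaling, with log2 changes of 0.10 (adjusted p = 0.31) and -0.06 (adjusted p = 0.573). With totals alone it was called lower at both days.

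The non-ATPase subunits make up the lid and the scaffold of the cap and hold its ubiquitin receptors and deubiquitinase. At day 1, 10 of 11 rose, and at day 3, 11 of 11; with totals alone 7 and 4 rose and none fell. PSMD12, a scaffolding subunit of the lid, changed most of the 41 genes at day 1. It had 67.1 and 69.2 CPM in uninjured samples, 283 and 283 CPM at day 1, and 100.4 and 102.3 CPM at day 3. The 2 day 1 samples were level with each other and far above the rest, while the day 3 samples lay a little above the uninjured ones. The log2 change was 2.05 ± 0.07 at day 1 (a 4.15-fold rise, adjusted p = 1.43e-09) and 0.57 ± 0.08 at day 3 (adjusted p = 8.47e-05), and day 3 was lower than day 1 by -1.48 ± 0.07 (adjusted p = 3.09e-08). With totals alone the day 3 rises of PSMD12 and PSMD7 were not called.

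PSMD7, the lid partner of the deubiquitinase PSMD14, followed a like course at smaller size. It had 111 and 102 CPM in uninjured samples, 246 and 247 CPM at day 1, and 153 and 157 CPM at day 3, with the 3 groups apart. The log2 change was 1.21 ± 0.08 at day 1 (adjusted p = 1.11e-07) and 0.55 ± 0.08 at day 3 (adjusted p = 0.000106), and day 3 was lower than day 1 by -0.66 ± 0.08 (adjusted p = 1.67e-05). PSMD12 and PSMD7 were the core or cap genes that fell between day 1 and day 3.

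PSMD14 itself had 52.4 and 53.4 CPM in uninjured samples, 87.3 and 97.4 CPM at day 1, and 93.0 and 95.4 CPM at day 3. Its log2 rise was 0.80 ± 0.09 at day 1 (adjusted p = 8.59e-06) and 0.83 ± 0.08 at day 3 (adjusted p = 7.41e-06), with no call between the days. PSMD1, a large scaffold that binds ubiquitin-like proteins, rose by 0.94 at day 1 and 0.84 at day 3.

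PSMD13 and PSMD11, both lid subunits, had the largest log2 rises of the non-ATPase group at day 3, at 0.89 and 0.87. PSMD4, a ubiquitin receptor, had 87.7 and 82.9 CPM in uninjured samples, 94.1 and 102.4 CPM at day 1, and 117 and 128 CPM at day 3; it was not called at day 1 (0.20, adjusted p = 0.0576) and rose by 0.52 at day 3. Higher at day 3 than at day 1 were PSMD4 by 0.32, PSMD13 by 0.29 and PSMD2 by 0.24, and the call of PSMD4 was lost without day 3 replicate 2 (adjusted p = 0.0672). With DESeq2 none of these 3 was called, at an adjusted p of 0.0703 for PSMD4 and 0.0582 for PSMD13. The smallest rises of the group were those of PSMD6, at 0.24 at day 1 and 0.35 at day 3.

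Activators dock on the core in place of the cap. PSME2, which with PSME1 forms the interferon-inducible activator ring, had 128 and 128 CPM in uninjured samples, 294 and 286 CPM at day 1, and 243 and 219 CPM at day 3. PSME1 had 131 and 123 CPM in uninjured samples, 161 and 161 CPM at day 1, and 186 and 180 CPM at day 3. The partners moved in opposite directions between the days: PSME2 fell by 0.33 on the log2 scale (adjusted p = 0.00342) and PSME1 rose by 0.19 (adjusted p = 0.0471), and PSME1 lost the call whichever 1 of the 6 samples was left out (adjusted p = 0.076 to 0.171), with DESeq2 (adjusted p = 0.183) and with totals alone (adjusted p = 0.279), while PSME2 lost it without day 3 replicate 2 (adjusted p = 0.0519). Against uninjured samples the log2 rise of PSME2 was 1.18 at day 1 and 0.85 at day 3, and that of PSME1 was 0.34 and 0.53. With totals alone the values of PSME1 were 0.004 (adjusted p = 0.976) and 0.105 (adjusted p = 0.244), neither of them called, and of the 5 activators and inhibitors 3 rose and 1 fell at day 1, and 1 rose and 1 fell at day 3.

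PSME3, a nuclear activator, had 41.4 and 40.3 CPM in uninjured samples, 104 and 91.8 CPM at day 1, and 51.1 and 52.5 CPM at day 3. PSME4, a large activator of nuclear proteasomes, had 107 and 118 CPM in uninjured samples, 193 and 206 CPM at day 1, and 117 and 124 CPM at day 3. Both stood highest at day 1 in both samples, and the day 3 samples of PSME4 overlapped the uninjured ones. The log2 rise at day 1 was 1.27 ± 0.09 for PSME3 (adjusted p = 3.03e-07) and 0.82 ± 0.08 for PSME4 (adjusted p = 4.26e-06), and day 3 was lower than day 1 by -0.92 and -0.73. PSME3 rose by 0.34 at day 3 (adjusted p = 0.0117), a call lost without uninjured replicate 2 (adjusted p = 0.0708) or day 3 replicate 2 (adjusted p = 0.063) and with DESeq2 (adjusted p = 0.111), and the value was -0.08 with totals alone.

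PSMF1, which encodes a protein that inhibits the isolated core, had 26.1 and 31.6 CPM in uninjured samples, 23.6 and 24.7 CPM at day 1, and 43.8 and 33.3 CPM at day 3. It was not called at day 1 (-0.26, adjusted p = 0.176) and was higher at day 3 than at day 1 by 0.68 ± 0.16 (adjusted p = 0.0035). Its rise of 0.42 at day 3 against uninjured samples (adjusted p = 0.0335) was lost without uninjured replicate 1 (adjusted p = 0.18) or day 3 replicate 1 (adjusted p = 0.339) and with DESeq2 (adjusted p = 0.204), and its value was -0.005 with totals alone.

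Assembly factors are chaperones that build the complex and leave it. Of the 6 genes, PSMG1 rose at both days and PSMG3 fell at day 1, while 4 were called at neither day. PSMG1, which helps form the alpha ring, had 66.8 and 63.5 CPM in uninjured samples, 88.6 and 87.1 CPM at day 1, and 85.7 and 72.1 CPM at day 3, a log2 rise of 0.43 and 0.28. The day 3 call was lost without uninjured replicate 1 (adjusted p = 0.0619), uninjured replicate 2 (adjusted p = 0.142) or day 3 replicate 1 (adjusted p = 0.262) and with DESeq2 (adjusted p = 0.175), and the value was -0.14 with totals alone. PSMG3, a chaperone of the same step, had 24.7 and 22.9 CPM in uninjured samples, 17.6 and 18.0 CPM at day 1, and 26.5 and 27.7 CPM at day 3. It was lower at day 1 by -0.41 ± 0.14 (adjusted p = 0.0218), a call lost with DESeq2 (adjusted p = 0.217) and without uninjured replicate 1 (adjusted p = 0.0777), day 1 replicate 1 (adjusted p = 0.0922) or day 1 replicate 2 (adjusted p = 0.0586). With totals alone 0 assembly factors rose and 3 fell at day 1. PSMD10 and PSMG3 were higher at day 3 than at day 1, by 0.43 (adjusted p = 0.0468) and 0.60 (adjusted p = 0.00317). PSMG3 lost that call with DESeq2 (adjusted p = 0.0559). PSMD10 lost it with DESeq2 (adjusted p = 0.24), without day 1 replicate 2 (0.29, adjusted p = 0.227) and without day 3 replicate 1 (0.31, adjusted p = 0.245).

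Between the days, 16 of the 41 genes were higher at day 3 than at day 1 and 5 were lower, where 30.5% of all genes were higher and 28.8% lower, so the share of higher genes was near the background. With totals alone 11 were higher and 8 lower, where 27.4% and 32.1% of all genes were. The 16 were 7 core genes (PSMA4, PSMA7, PSMB4, PSMB5, PSMB6, PSMB7 and PSMB10), 5 cap genes (PSMC1, PSMC2, PSMD2, PSMD4 and PSMD13), PSME1, PSMF1, PSMD10 and PSMG3. The 5 were PSMD12, PSMD7, PSME2, PSME3 and PSME4. Under the test against a change of 1.5-fold 0 were higher and 2 were lower, where 15.9% and 12.2% of all genes were. Day 1 and day 3 are set against the same uninjured samples, so their changes are not independent of each other.

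Summed levels put the parts side by side. The 13 core genes summed to 1532 and 1575 CPM in uninjured samples, 2437 and 2400 CPM at day 1, and 2916 and 2785 CPM at day 3. The 16 cap genes summed to 1405 and 1415 CPM in uninjured samples, 2238 and 2297 CPM at day 1, and 2140 and 2069 CPM at day 3. The core sum thus stood 1.56 times its uninjured mean at day 1 and 1.83 times at day 3, and the cap sum 1.61 and 1.49 times. Activators and PSMF1 stood at 1.77 times at day 1 and 1.43 times at day 3, and assembly factors at 1.06 and 1.12 times.

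The ratio of the core sum to the cap sum within a library does not depend on the scaling between libraries. It was 1.09 and 1.11 without injury, 1.09 and 1.04 at day 1, and 1.36 and 1.35 at day 3. Both day 3 samples lay above the other 4, which were close together. As a share of all counts, the core held 0.182% and 0.188% without injury, 0.224% and 0.232% at day 1, and 0.259% and 0.248% at day 3, and the cap 0.167% and 0.169%, 0.206% and 0.222%, and 0.190% and 0.184%. These sums weigh genes by abundance, and no test was made of them. PSMD12 and PSMD7, the cap genes that rose most at day 1, are part of the cap sum. PSMD12 had 283 and 283 CPM at day 1, against 67.1 and 69.2 CPM in uninjured samples, and PSMD7 246 and 247 CPM, against 111 and 102 CPM. The ratio at day 1 therefore depends on these genes, and it was not computed without them. They made up more of the cap sum at day 1 than without injury. The likeness of the uninjured and day 1 ratios therefore need not hold for the other cap genes.

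**Figure D3:**
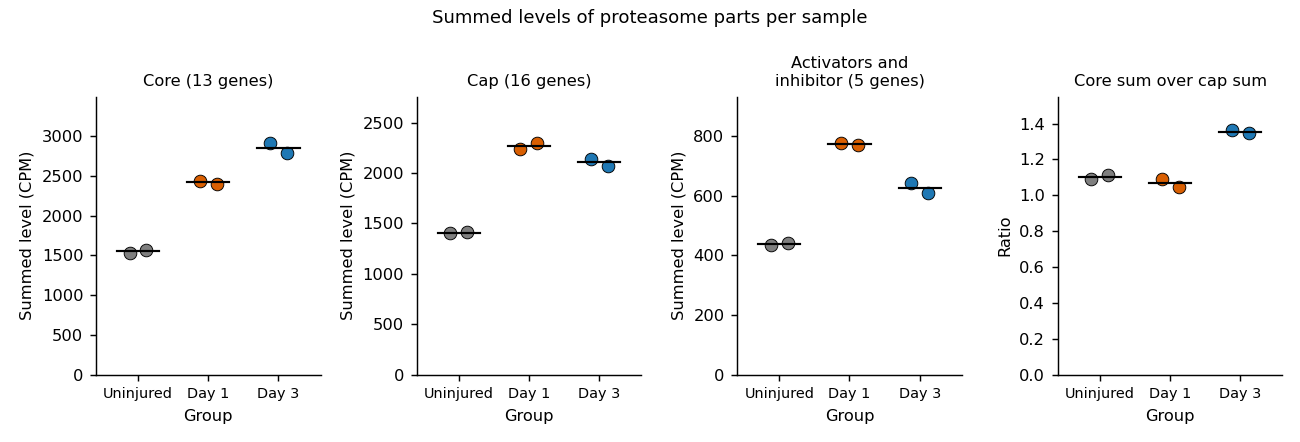
Points are samples and lines group means of the summed levels (CPM, from 0) of core genes, cap genes, and activators with the inhibitor, and of the ratio of core sum to cap sum. The ratio is between 1.04 and 1.11 in the uninjured and day 1 samples and 1.35 to 1.36 at day 3, with PSMD12 and PSMD7 in the cap sum.

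Genes that work beside the proteasome but do not carry its names were counted by list. These counts are read against the shares of all genes given above, 30.5% higher and 31.7% lower at day 1, 28.8% and 26.4% at day 3, and 30.5% and 28.8% between the days. Of 16 cap subunits, shuttle and maturation factors under other names, 12 were tested: 8 rose and 1 fell at day 1, and 6 rose and 3 fell at day 3, the fallen ones a share near the background. POMP, which matures the core, had 159 and 161 CPM in uninjured samples, 331 and 310 CPM at day 1, and 305 and 294 CPM at day 3, a log2 rise of 1.00 and 0.91. AKIRIN2, which carries proteasomes into the nucleus, had 115 and 102 CPM in uninjured samples, 249 and 250 CPM at day 1, and 124 and 125 CPM at day 3; it rose by 1.21 at day 1 and was not called at day 3. UBQLN1, a shuttle for ubiquitin-tagged proteins, rose by 1.24 at day 1 and 0.45 at day 3. PAAF1, which binds the free ATPases of the cap, had 27.5 and 33.1 CPM in uninjured samples, 9.26 and 10.8 CPM at day 1, and 21.4 and 18.6 CPM at day 3, lower by -1.61 and -0.60. UBE3C, a ligase of the proteasome, was lower at day 3 by -0.66. Between day 1 and day 3, 2 genes of this list rose and 6 fell, with PAAF1 higher by 1.01, AKIRIN2 at 0.499 times its day 1 mean and UBQLN1 lower by -0.79.

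Of 12 regulators of proteasome genes, 11 were tested: 6 rose and 0 fell at day 1, and 6 rose and 1 fell at day 3. NFE2L1, the factor known for restoring proteasome genes when the enzyme is blocked, had 75.3 and 73.4 CPM in uninjured samples, 69.9 and 67.7 CPM at day 1, and 105 and 102 CPM at day 3. It was not called at day 1 (-0.11, adjusted p = 0.242) and rose by 0.48 at day 3. Genes of its small MAF partners and of the competitor BACH1 rose at day 1, MAFF by 1.03, MAFK by 1.28 and BACH1 by 1.38, while at day 3 MAFG rose by 0.68, BACH1 by 0.65, and NFYA fell by 0.63. Between day 1 and day 3, 1 gene of this list rose and 5 fell, among them NFYA by -1.19, BACH1 by -0.73 and MAFK by -0.72.

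Of 17 genes of ubiquitin and its activation, 15 were tested: 11 rose and 1 fell at day 1, and 5 rose and 0 fell at day 3, the risen ones a share near the background. UBE2D3, a conjugating enzyme, had 305 and 302 CPM in uninjured samples, 599 and 605 CPM at day 1, and 357 and 347 CPM at day 3. UBE2L3, another, had 67.1 and 66.6 CPM in uninjured samples, 145 and 120 CPM at day 1, and 195 and 189 CPM at day 3, a log2 rise of 0.99 and 1.52. STUB1, a ligase that works with chaperones, had 141 and 142 CPM in uninjured samples, 75.4 and 74.6 CPM at day 1, and 129 and 124 CPM at day 3, lower at day 1 by -0.92. UBB, a ubiquitin gene, rose by 0.97 and UBA1, the main activating enzyme, by 0.64 at day 3. Between day 1 and day 3, 4 rose and 10 fell, UBA6 by -1.11, SQSTM1 by -0.90 and UBE2D1 by -0.81.

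Of 9 genes of antigen peptide loading, which use the peptides the proteasome makes, 5 rose and 1 fell at day 1, and 6 rose and 1 fell at day 3. NLRC5, an activator of class I genes, had 9.17 and 8.02 CPM in uninjured samples, 30.2 and 34.4 CPM at day 1, and 22.1 and 25.0 CPM at day 3. B2M, the class I light chain, rose by 0.51 at day 1 and 1.36 at day 3, and CALR, a chaperone of loading, by 0.62 and 1.05. Between day 1 and day 3, 4 rose and 2 fell, with B2M higher by 0.85, TAP2 higher by 0.52 and IRF1 lower by -0.79.

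Cells were clustered without the proteasome genes and those lists, and clusters were named by marker genes as basal-like, differentiated-like or conjunctival-like; cycling-like cells numbered 7 to 23 a sample outside day 3, too few to compare. Each compared class held at least 250 cells in each sample. With finer clusters fewer uninjured cells were in named clusters of 2 classes: differentiated-like cells then numbered 103 and 100 in uninjured samples, in place of 466 and 437, and conjunctival-like cells 147 and 155, in place of 467 and 445. An unnamed finer cluster held 319 and 278 uninjured cells, with KRT14 and KRT15 among its leading genes. Its mean log2 fold was 0.22 for basal markers and -0.54 for conjunctival markers. Another unnamed one held 357 and 330 uninjured cells, with a mean of 0.45 for differentiation markers. Which classes these cells had left was not traced, so the class names may not describe all uninjured cells in them. A keratocyte-like cluster of 97 and 91 cells at day 3 also came apart there. Cycling-like cells at day 3 then numbered 53 and 57, in place of 150 and 148, while basal-like cells numbered 262 and 257, in place of 261 and 257. Different clusters held a class on each day: differentiated-like cells were mostly in cluster 2 in uninjured samples, 0 at day 1 and 5 at day 3, basal-like cells in 3 and 4, 3 and 6, and 9, and conjunctival-like cells in clusters 1, 8 and 7. A class therefore shares the marker list with the highest mean and is not one cluster followed over time. Leading genes were shared in part. KRT3, KRT24, KRT12 and LY6G6C were among those of differentiated-like clusters 0, 2 and 5. GSTA3, KRT4, PIP and S100A8 were among those of conjunctival-like clusters 1, 8 and 7. Basal-like clusters differed in the first gene, SYNE1 in cluster 3, GPHA2 in 4, MMP1 in 6 and CXCL14 in 9. Of these, clusters 3 and 9 both had CXCL14, SLC12A7, COL7A1, VIT and HTRA1 among the leading genes. The conjunctival-like class was added after seeing the data.

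The rise was found in each class. At day 1, 28 of 40 tested genes rose and 1 fell in differentiated-like cells (background 27.3% and 27.9%), 25 of 39 rose and 0 fell in basal-like cells (27.7% and 26.3%), and 26 of 39 rose and 2 fell in conjunctival-like cells (26.6% and 25.4%). At day 3, 29 rose and 1 fell in differentiated-like cells (background 25.0% and 22.0%), 27 rose and 0 fell in basal-like cells (20.8% and 18.4%), and 30 rose and 0 fell in conjunctival-like cells (25.5% and 22.0%). The gene that fell was PSMG3 at day 1 and PSME4 at day 3 in differentiated-like cells; in conjunctival-like cells PSMD10 and PSMG3 fell at day 1. With totals alone the counts were 11 and 5 for differentiated-like cells at day 3, 9 and 6 for conjunctival-like cells at day 1, and 15 and 2 for conjunctival-like cells at day 3. In that order the median log2 changes were 0.081, 0.026 and 0.209 for the proteasome genes tested, against -0.497, -0.492 and -0.555 for all genes. Shares of all genes called are not given for these fits, so their counts cannot be set against a background. PSMC3IP was not tested in these classes and PSMD5 only in differentiated-like cells, for low counts.

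PSMD12 had the largest change of the 41 genes at day 1 in each class. In differentiated-like cells it had 269 and 296 CPM at day 1, against 67.4 and 66.8 CPM in uninjured samples, a change of 2.07 (adjusted p = 2.48e-12). In basal-like cells it had 276 and 268 CPM at day 1, against 90.2 and 87.9 CPM in uninjured samples, a log2 change of 1.61 ± 0.13 (adjusted p = 4.53e-11). In conjunctival-like cells it had 307 and 279 CPM at day 1, against 53.1 and 63.8 CPM in uninjured samples, a change of 2.32 (adjusted p = 1.01e-10). At day 3 it was no longer called in basal-like cells (0.21, adjusted p = 0.301).

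PSMD12 was followed at day 1 by PSMD7, PSME3 and PSME2 in differentiated-like cells, at 1.15, 1.00 and 0.90 on the log2 scale. In basal-like cells PSME3, PSMD7 and PSMB2 came next, at 1.45, 1.27 and 1.21, and in conjunctival-like cells PSME2, PSME3 and PSMB2, at 1.64, 1.46 and 1.00. PSMB5 and PSMB7 were among the 4 largest changes of each class at day 3. PSMB5 rose at day 3 by 0.93 in differentiated-like cells, 1.31 in basal-like cells and 1.21 in conjunctival-like cells, and PSMB7 by 0.93, 1.04 and 1.15. The other large rises at day 3 were PSMD11 (1.04) and PSMB6 (0.94) in differentiated-like cells, PSMB10 (1.23) and PSMB2 (1.10) in basal-like cells, and PSMB6 (1.17) and PSMD13 (1.14) in conjunctival-like cells.

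Between the days, 10 genes were higher and 7 lower at day 3 than at day 1 in differentiated-like cells (background 26.8% and 25.0%), 6 and 5 in basal-like cells (22.8% and 24.2%), and 15 and 4 in conjunctival-like cells (23.3% and 22.6%). With totals alone 5 were higher and 12 lower in differentiated-like cells. There the median log2 change was -0.152 for all genes and -0.087 for the proteasome genes tested. The share of all genes called is not given for that fit. PSMD12 and PSME3 fell between the days in all 3 classes, PSMD12 by -1.53 in differentiated-like, -1.40 in basal-like and -1.66 in conjunctival-like cells. The count of lower genes in basal-like cells was 3 without day 3 replicate 1 and 2 without day 3 replicate 2. In differentiated-like cells it was 4 without day 3 replicate 2, and 9 genes were higher in conjunctival-like cells without day 1 replicate 2.

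The ratio of core to cap sums was highest at day 3 in each class. In differentiated-like cells it was 1.08 and 1.14 without injury, 1.06 and 0.966 at day 1, and 1.27 and 1.295 at day 3. In basal-like cells it was 1.11 and 1.13, 1.14 and 1.15, and 1.47 and 1.44 in that order, and in conjunctival-like cells 1.09 and 1.07, 1.08 and 1.08, and 1.42 and 1.33. In every class both day 3 samples lay above the 4 others, and these ratios too include PSMD12 and PSMD7 in the cap sum.

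**Figure D4:**
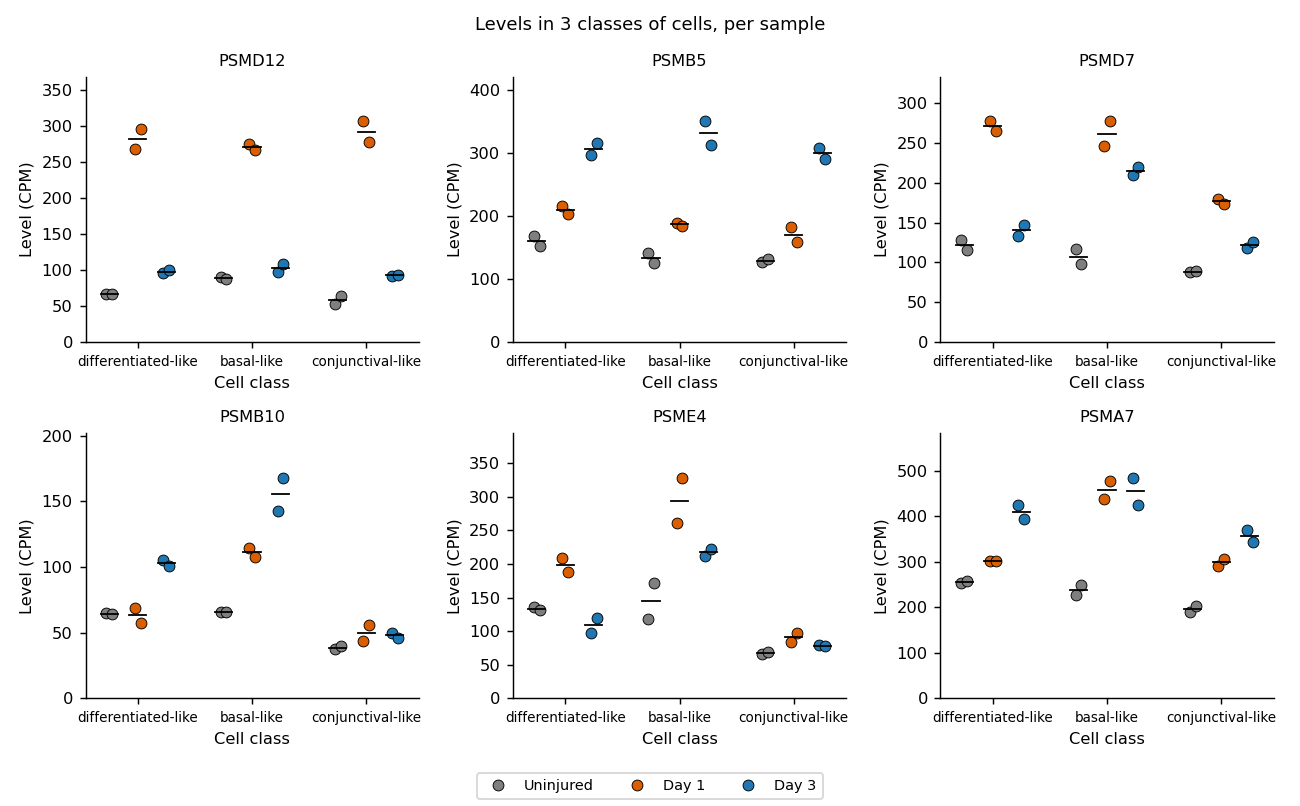
Points are samples and lines group means of the level (CPM, scaled within each class) of 6 genes in differentiated-like, basal-like and conjunctival-like cells. PSMD12 is highest at day 1 and PSMB5 at day 3 in all 3 classes, while PSMB10 at day 1 is raised in basal-like cells (114 and 108 CPM) and not in differentiated-like cells (68.9 and 57.6 CPM).

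Whether a gene's response differed between differentiated-like and basal-like cells was tested as an interaction of class and group with the sample as a block. At day 1, 4 of the 41 genes differed, all with a smaller change in differentiated-like cells. Of all genes 7.34% had a lower and 5.57% a higher change there, so the share of the 41 genes was near the background. At day 3, 7 differed, again all lower in differentiated-like cells, where 7.35% of all genes were lower and 6.9% higher. PSMB10 had 68.9 and 57.6 CPM at day 1, against 64.9 and 64.2 CPM in uninjured samples, in differentiated-like cells, and 114 and 108 CPM at day 1, against 65.9 and 66.1 CPM in uninjured samples, in basal-like cells. PSMA7 had 302 and 301 CPM at day 1, against 254 and 259 CPM in uninjured samples, in differentiated-like cells, and 438 and 478 CPM at day 1, against 228 and 249 CPM in uninjured samples, in basal-like cells. In these 2 genes the day 1 samples of basal-like cells lay far above the uninjured ones, and those of differentiated-like cells overlapped them or lay just above.

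PSME4 and PSMD7 differed most by adjusted p at day 3. PSME4 had 97.4 and 120 CPM at day 3, against 136 and 131 CPM in uninjured samples, in differentiated-like cells, and 212 and 223 CPM at day 3, against 118 and 172 CPM in uninjured samples, in basal-like cells. PSMD7 had 134 and 147 CPM at day 3, against 129 and 115 CPM in uninjured samples, in differentiated-like cells, and 210 and 219 CPM at day 3, against 117 and 97.9 CPM in uninjured samples, in basal-like cells. The count at day 1 was 2 without day 1 replicate 2. At day 3 it was 2 without uninjured replicate 1 and 4 without day 1 replicate 1, day 3 replicate 1 or day 3 replicate 2, and 3 with finer clusters.

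Isoform tables were named in 2 ways with no name in common: PB numbers for uninjured replicates 1 and 2 and day 1 replicate 1, and reference or plain transcript numbers for the other 3. For that reason isoforms were compared only among the 3 samples with PB numbers, with no replicate at day 1. There the proteasome genes had 194 isoforms in the day 1 sample, against 134 and 139 in the uninjured samples, from 20232 counts against 14323 and 16763. Over all genes the day 1 sample had 31338 isoforms, against 29379 and 31780. More counts can show more isoforms, and the part of depth was not tested. Isoforms that match a known transcript in full (FSM) held 80.5% of their counts (exact Clopper-Pearson 95% interval 79.9% to 81.0%, counting error only) in the day 1 sample, against 81.8% (81.1% to 82.4%) and 81.7% (81.1% to 82.3%) in the uninjured samples. Over all genes the FSM share was 62.6%, against 61.2% and 62.5%.

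PSMD12 was examined further because its level changed most. It had 1131 isoform counts over 23 isoforms in day 1 replicate 1, against 305 over 11 and 338 over 10 in the uninjured samples. The full-match isoform PB.19083.209 had 335 counts in the day 1 sample, against 64 and 96, and PB.19083.146 had 276, against 87 and 75. Another full-match isoform, PB.19083.114, had 32 counts in the day 1 sample, against 34 and 39. Its share was 2.83% (1.94% to 3.97%) in the day 1 sample, against 11.2% (7.85% to 15.2%) and 11.5% (8.34% to 15.4%), so that the interval of the day 1 sample lay below both others. These isoforms were picked after their values were seen, and no test was made.

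**Figure D5:**
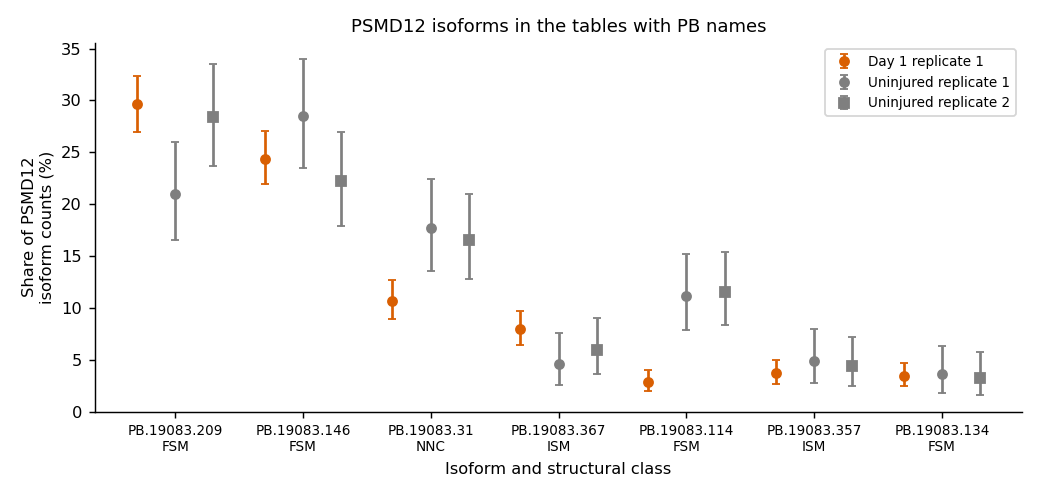
Points give the share (%) of PSMD12 isoform counts held by its 7 most counted PB isoforms in day 1 replicate 1 and in both uninjured samples, with exact 95% binomial intervals; letters under the names are structural classes (FSM full match, ISM partial match, NNC unknown splice site). PB.19083.114 holds 2.83% in the day 1 sample, against 11.2% and 11.5%.

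In the other 3 isoform tables each listed proteasome gene had 1 isoform, and some genes were nearly missing there while counted in the gene tables. PSMB5 had 6 and 1 isoform counts at day 3 beside 1367 and 1257 gene counts. PSMD11 had 5 isoform counts in day 1 replicate 2, beside 413 gene counts, and 2 and 3 at day 3, beside 520 and 497. The isoform counts cover 1234 of 1267 barcodes of the gene table in day 1 replicate 2, and 701 of 1096 and 679 of 1068 at day 3, and an isoform table shared up to 136 barcodes with the gene table of another sample. These tables were therefore not used for levels.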

How the data were processed

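Per the labels' protocols, cells were strained, captured with a 10x Genomics Chromium instrument and read as whole cDNA by HIT-scISOseq. Per the submitters' processing notes Cell Ranger was used. Its role, the aligner, build, annotation, filters and the treatment of reads shared with pseudogenes are not given in these sources. The authors deposited whole-number counts per gene and cell barcode and counts per isoform and cell barcode, unnormalised. Symbols of 41 of 41 genes are in the RefSeq gene table.

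All 7895 barcodes were used; Scrublet called 66 (0.836%) doublets and 68 had under 500 counts, and both were left out only as an alternative. Gene tables shared at most 2 barcodes, in 7 of 15 pairs. Counts were summed per sample, and per class, and tested with the quasi-likelihood F test of edgeR 4.0.16 in R 4.3.3 after filterByExpr and TMM, over all 6 samples with group as the only term. TMM factors were 1.19 for both uninjured samples, 0.922 and 0.966 for day 1, and 0.888 and 0.891 for day 3, with a common biological variation (BCV) of 0.0651. Replicates, once summed, differed beyond counting error (chi-square per degree of freedom 1.92 to 4.50). Cells were log-normalised to 10000 counts, scaled within sample and clustered with Leiden (leidenalg 0.10.2, resolution 0.5) in scanpy 1.11.5, using 15 neighbours in the first 30 components of 2000 variable genes; a cluster took the name of the marker list with the highest mean log2 fold above 0.5, with at least 3 markers in over 5% of its cells. The fits were tested on simulated data.

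The members, gene lists and rules were chosen with earlier results of these data known. Up to 4 genes of each role with the largest change past the threshold were named per comparison, with PSMB5, PSMB6, PSMB7, PSMB10, PSME1, PSME2, PSMC4 and PSMD14 throughout, 4 per class, up to 6 per class difference and up to 3 per companion list; other members appear with shorter values. The alternatives were DESeq2 1.42.0, totals alone, no filter, a replicate block, a 1.5-fold test, other barcodes, finer clusters and leaving out each sample.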

Additional observations from a re-analysis of the deposited data

Results flagged for a closer look

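The response to injury differed between differentiated-like and basal-like cells, by edgeR's test of the interaction itself, in the following genes. At day 1 they made up 9.76% of the 41 genes, where 7.34% of all genes were lower and 5.57% higher, a share near the background. At day 3 they made up 17.1%, where 7.35% of all genes were lower and 6.9% higher. Values are log2 changes in differentiated-like cells minus those in basal-like cells, so a negative value means a lower change in differentiated-like cells; the change in each class is from its own fit. At day 1 against uninjured samples the difference was -0.78 for PSMB10 (-0.02 in differentiated-like and 0.75 in basal-like cells, adjusted p = 0.00316), -0.71 for PSMA7 (0.23 and 0.94, adjusted p = 1.25e-06), -0.64 for PSMB2 (0.58 and 1.21, adjusted p = 0.00956) and -0.44 for PSME4 (0.57 and 1.01, adjusted p = 0.0373).

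At day 3 against uninjured samples the difference was -0.98 for PSMG3 (-0.38 and 0.55, adjusted p = 0.049), -0.93 for PSME4 (-0.30 and 0.58, adjusted p = 1.46e-05), -0.84 for PSMD7 (0.20 and 0.99, adjusted p = 3.48e-05), -0.70 for PSMB2 (0.44 and 1.10, adjusted p = 0.00648), -0.60 for PSMB10 (0.67 and 1.23, adjusted p = 0.024) and -0.47 for PSMA3 (0.53 and 0.96, adjusted p = 0.0386). The seventh gene that differed at day 3 was PSMB5, with a difference of -0.435 (0.93 and 1.31, adjusted p = 0.0208). Different clusters hold each class on each day, and what that adds to these differences was not tested.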

How the results depend on the processing

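Of 68 named values in all cells, 56 kept direction and call with DESeq2, 53 with totals alone, 66 with the replicate block, 66 without the filter, 67 without low-count and doublet barcodes, and 30 under the 1.5-fold test. With totals alone the value turned to -0.091 for PSMC1 at day 1, and to -0.079 for PSME3, -0.005 for PSMF1 and -0.142 for PSMG1 at day 3. Between the days, where neither was called, PSMC4 turned to -0.053 and PSMD14 to -0.051. Leaving out 1 sample, PSMC4 ranged from -0.051 (without day 3 replicate 1) to 0.116 and PSMD14 from -0.045 (without day 1 replicate 1) to 0.11; without day 1 replicate 1 PSMC4 was -0.039. The cause was not tested.

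Counts of genes higher and lower, in all cells, were 28 and 0 at day 1, 29 and 0 at day 3 and 8 and 5 between the days with DESeq2; 22 and 5, 20 and 3, and 11 and 8 with totals alone; and 14 and 0, 16 and 0, and 0 and 2 under the 1.5-fold test. In differentiated-like cells, totals alone gave 18 and 2, 11 and 5, and 5 and 12. There DESeq2 called 0 lower at day 1 and at day 3, with 5 higher and 4 lower between the days, and finer clusters (Leiden resolution 1.0) called 0, 0 and 4 lower. In basal-like cells totals alone called 1 lower at each day, and DESeq2 3 higher and 2 lower between the days. In conjunctival-like cells totals alone gave 9 and 6 at day 1 and 15 and 2 at day 3, DESeq2 16 and 0 at day 1 and 8 higher between the days, and finer clusters 1 lower at day 1. Medians of all genes with totals alone, at day 1 and day 3, were -0.331 and -0.497 on the log2 scale in differentiated-like cells. They were -0.231 and -0.27 in basal-like cells and -0.492 and -0.555 in conjunctival-like cells. Class differences numbered 7 at day 1 and 11 at day 3 with totals alone, and 3 at day 3 with finer clusters. Shares of all genes called are not given for DESeq2, finer clusters, the replicate block or fits without 1 sample. Nor are they given for totals alone within or between classes. These counts show how calls depend on the setting and cannot be set against a background.

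Leaving out 1 sample in turn gave 29 to 31 higher and 0 to 1 lower at day 1, 31 to 33 and 0 at day 3, and 11 to 15 and 4 to 6 between the days. The ranges were 22 to 30 and 0 to 1, 26 to 29 and 0 to 1, and 7 to 11 and 4 to 7 in differentiated-like cells, 23 to 27 and 0, 24 to 28 and 0, and 5 to 7 and 2 to 5 in basal-like cells, and 22 to 26 and 0 to 2, 26 to 30 and 0, and 9 to 15 and 4 in conjunctival-like cells. Class differences numbered 2 to 6 at each day. The fallen gene of differentiated-like cells was lost at day 1 (PSMG3) without day 1 replicate 2, and at day 3 (PSME4) without uninjured replicate 1, uninjured replicate 2 or day 3 replicate 1. In conjunctival-like cells 0 fell at day 1 without uninjured replicate 1 or day 1 replicate 1, and 1 without uninjured replicate 2.

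The labels do not say whether replicate numbers pair the samples. Same-numbered samples did not deviate together (correlations of 0.0209 to 0.0303 in 2 of 3 pairs of groups, and 0.05 in the other). Each group gives only the difference of its 2 samples, so these correlations cannot exclude a pairing. With replicate numbers as a block the counts were 30 and 1, 32 and 0, and 15 and 5 in all cells, and 27 and 1, 29 and 1, and 10 and 7 in differentiated-like cells. They were 25 and 0, 26 and 0, and 6 and 5 in basal-like cells, and 25 and 2, 31 and 0, and 14 and 4 in conjunctival-like cells. PSME1 between the days and PSMF1 at day 3 lost their call.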
